A study of Mus musculus with 6 samples.

Results

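Long noncoding RNAs (lncRNAs) of 2 kinds were followed in cultured satellite cells (SCs), the stem cells of skeletal muscle. The first kind was nuclear lncRNAs, represented by *Malat1*, *Neat1* and *Kcnq1ot1*. The second kind was hosts of small nucleolar RNAs (snoRNAs), represented by *Gas5*, *Snhg1*, *Snhg6*, *Snhg8*, *Snhg9* and *Snhg12*. These 9 genes were taken by name from a table of 55416 gene rows, in which each name had 1 row. They were chosen by kind and on their TPM in these same libraries, with the values already known, so their levels are given as a description without a test.

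The sequenced libraries numbered 6, with 3 for WT and 3 for *Ltf*-KO SCs. *Ltf* codes for lactoferrin, a secreted iron-binding glycoprotein, and the comparison asks what its loss changes in the RNA of growing SCs. The *Ltf*-KO mice carried a whole-body deletion of several exons of *Ltf*, made with CRISPR-Cas9 in C57/BL6N zygotes. In both genotypes, SCs were sorted from the hind leg muscles of adult mice as Sca1-, CD11b-, CD34+ and α7-integrin+ cells and then grown for 4 days in serum-containing medium with basic fibroblast growth factor, with no further treatment. How many mice stood behind a library was not given in the sources used here, so the p-values measure the spread between these libraries, which may be technical.

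*Ltf* itself was listed at 0.12, 0.02 and 0.02 TPM (a transcript's level per length, scaled to an equal total in each library) in WT and at 0.02, 0.03 and 0 TPM in *Ltf*-KO, too little in both genotypes to check the labels (exact permutation test, two-sided p = 0.6, where 0.1 is the smallest p possible with 3 against 3 libraries). All 9 satellite cell and myoblast markers were present, with a summed level of 2685.1 to 2858.5 TPM in WT and 2705.7 to 2978.9 TPM in *Ltf*-KO. Fibroblast markers summed to 115.2 to 122.9 TPM in WT and 119.2 to 151.4 TPM in *Ltf*-KO, and those of smooth muscle and pericytes to 467.6 to 553.5 and 518.7 to 648.9 TPM, most of it *Acta2*. Macrophage markers summed to at most 11.9 TPM in any library, with 4 of 6 below 1 TPM throughout, and endothelial markers to at most 14.2 TPM. All 7 tested fibroblast markers had a higher mean log2 level in *Ltf*-KO, with a median log2 fold change of 0.19. No marker of these lists had a limma unadjusted p under 0.05, beside 3.78% of all genes tested. The part of these cells in the results was not tested. In such bulk libraries, fewer cells of one type and less RNA per cell cannot be told apart.

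*Malat1* RNA gathers in nuclear speckles, the bodies that store splicing factors, and *Neat1* RNA is the scaffold around which paraspeckles form. *Kcnq1ot1* is transcribed from the paternal chromosome, antisense to *Kcnq1*, and silences imprinted neighbours such as *Cdkn1c*. The snoRNA hosts carry their snoRNAs in introns. After splicing, the snoRNAs guide chemical modification of ribosomal and other RNAs, while the spliced host RNA of genes such as *Gas5* is exported, read briefly by ribosomes and destroyed by nonsense-mediated decay. Many snoRNA hosts, like ribosomal protein genes, start transcription inside a run of C and T, known as a 5' terminal oligopyrimidine tract, which ties translation of the transcript to growth signals.

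The start regions are shown because such tracts can be read in them, and they played no part in choosing the genes. RefSeq promoters on GRCm38.p6 were available for 7 of the 9 genes, in 8 windows of 60 bases, each with 40 bases before the start and 20 from it, written 5' to 3' on the gene's own strand. Capitals mark TATA letters before the start and the longest run of C and T within 10 bases on each side of it. *Neat1* and *Snhg6* have no window here. The files were made on GRCm39 according to the submitters' processing notes and hold no coordinates, so these positions place the sequence and not the reads.
Malat1, chr19:5802653-5802712, minus strand: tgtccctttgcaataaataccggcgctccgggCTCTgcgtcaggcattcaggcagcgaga
Kcnq1ot1, chr7:143296528-143296587, minus strand: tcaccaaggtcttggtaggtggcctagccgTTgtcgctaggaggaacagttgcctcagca
Gas5 start 1, chr1:161034561-161034620, plus strand: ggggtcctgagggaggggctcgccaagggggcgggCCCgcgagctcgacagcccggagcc
Gas5 start 2, chr1:161035126-161035185, plus strand: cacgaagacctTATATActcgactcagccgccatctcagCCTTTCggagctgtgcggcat
Snhg1, chr19:8723447-8723506, plus strand: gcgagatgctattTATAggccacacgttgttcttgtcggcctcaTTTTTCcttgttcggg
Snhg8, chr3:123508317-123508376, minus strand: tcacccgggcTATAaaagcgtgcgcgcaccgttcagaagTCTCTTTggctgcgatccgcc
Snhg9, chr17:24719946-24720005, minus strand: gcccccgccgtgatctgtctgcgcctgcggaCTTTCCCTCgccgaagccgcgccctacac
Snhg12, chr4:132308638-132308697, plus strand: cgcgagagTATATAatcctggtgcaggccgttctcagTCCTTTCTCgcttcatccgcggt

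The longest run of C and T had 9 bases in *Snhg9* and *Snhg12*, a length reached by 4.51% of the 32851 promoters in the table. It had 7 bases in *Snhg8*, reached by 12.2%, and 6 at the second *Gas5* start, reached by 20.2%. In *Snhg1* the run had 6 bases up to the end of the searched stretch, where the count stopped, and 9 when followed beyond it. No other run went past the searched stretch. The run spanned the start in *Snhg12*, *Snhg8* and the second *Gas5* start. In *Snhg1* it lay wholly after the start. In the other windows, that of *Snhg9* among them, it lay wholly before the start, so an RNA from that start would not hold it. *Malat1*, with 4 bases, and *Kcnq1ot1*, with 2, had runs of a length found in 54.4% and 95.6% of promoters, and the upstream *Gas5* start had 3 bases (77.4%). The letters TATA, searched on the printed strand in the 40 bases before the start, were found in 4 of the 8 windows, those of *Snhg1*, *Snhg8*, *Snhg12* and the second *Gas5* start, against 7.63% of all promoters. These matches are descriptions of letters and were not tested as binding or start sites.

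Of the 9 genes, chosen in part on these same levels, 7 had a mean of at least 50 TPM and are called abundant here. Of 13117 table rows that GENCODE M21 types as lncRNA, 801 reached a mean of 1 TPM and 20 a mean of 100 TPM. *Gas5* ranked 2 among them at a mean of 636.5 TPM over the 6 libraries, behind *H19*, and *Malat1* ranked 4 at 389.7 TPM. *Neat1* ranked 11 at 224.8 TPM, *Snhg1* 13 at 198.2 TPM, *Snhg6* 15 at 154.4 TPM, *Snhg8* 16 at 137.5 TPM and *Snhg12* 24 at 69.4 TPM. *Snhg9* ranked 176 and *Kcnq1ot1* 2040, the latter at a mean of 0.222 TPM, so neither was abundant. Together the 9 genes made up between 11.3% and 13.2% of all lncRNA TPM in a library. The class as typed there also holds some genes with the names of protein-coding genes, such as *Cct6a* at rank 7, and they enter these ranks and shares.

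**Figure D1:**
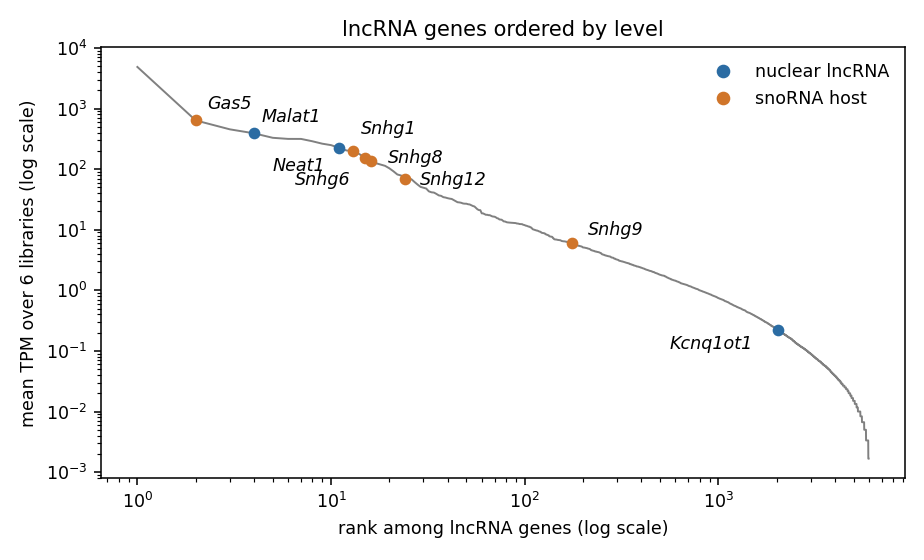
Mean TPM over the 6 libraries (y axis, log scale) against rank among genes typed as lncRNA (x axis, log scale), with the curve through all such genes above 0 in grey, nuclear lncRNAs in blue and snoRNA hosts in orange. Of the 9 genes, 7 sit between rank 2 and rank 24, while *Snhg9* and *Kcnq1ot1* lie far down the curve.

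The order of levels was the same in every library for most neighbours. *Gas5* lay above *Malat1*, *Malat1* above *Neat1*, *Neat1* above *Snhg1*, *Snhg1* above *Snhg6* and *Snhg8* above *Snhg12* in all 6 libraries, with no overlap of their ranges. The gap between *Neat1* and *Snhg1* was narrow, with the lowest *Neat1* value at 212.56 TPM and the highest *Snhg1* value at 212.18 TPM. *Snhg6* and *Snhg8* did not separate, as their ranges overlapped and *Snhg6* was the higher in 5 of 6 libraries.

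TPM is a level per length, so long and short lncRNAs with equal TPM differ in the amount of RNA sequence. In GENCODE M21, *Malat1* spans 6983 bp on chromosome 19, *Neat1* 20771 bp on the same chromosome and *Kcnq1ot1* 93092 bp as a single exon on chromosome 7. *Gas5* spans 4118 bp on chromosome 1 with up to 12 exons in a transcript, and *Snhg1* 2969 bp on chromosome 19 with up to 10 exons. Multiplied by the longest annotated transcript in kb, the mean level put *Neat1* first at 4669.3 TPM × kb, ahead of *Malat1* at 2721.3 and *Gas5* at 1626.9. On the same scale *Kcnq1ot1* had 20.7 and *Snhg9*, with a spliced length of 183 bases, had 1.11, the reverse of their order by TPM. The product also depends on the transcript chosen. The longest *Gas5* transcript has 2556 bases and the one with most exons 502, and for *Neat1* these are 20771 and 1030. The gene models behind the deposited TPM were not given in the sources used here, so this product is only a guide.

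Among the nuclear lncRNAs, no difference between genotypes was detected. *Malat1* was measured at 363.09, 409.43 and 401.49 TPM in WT and at 409.89, 364.28 and 389.95 TPM in *Ltf*-KO. In each genotype a single library was low and the others were higher, so the groups overlapped fully. The log2 fold change was -0.012 (SE 0.062, 95% interval -0.16 to 0.14, limma adjusted p = 0.999), which bounds the ratio of *Ltf*-KO to WT between 0.894 and 1.10. The sign of this small value was not stable, since leaving out single libraries gave values from -0.065 to 0.033.

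*Neat1* was measured at 212.56, 237.89 and 221.6 TPM in WT and at 226.18, 231.27 and 219.29 TPM in *Ltf*-KO. All *Ltf*-KO values fell inside the WT range. The log2 fold change was 0.011 (SE 0.049, 95% interval -0.11 to 0.13, limma adjusted p = 0.999), with values from -0.026 to 0.055 when single libraries were left out.

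*Kcnq1ot1* was listed at 0.2, 0.22 and 0.21 TPM in WT and at 0.23, 0.21 and 0.26 TPM in *Ltf*-KO. The groups overlapped, and at a step of 0.01 TPM in the table each value carries a coarse rounding. Being under a mean of 1 TPM, the gene was left out of the fit across genes. On log2(TPM + 1) *Ltf*-KO was 0.027 higher (exact permutation test, two-sided p = 0.3, smallest possible 0.1). Its coefficient of variation, averaged over both genotypes, was 7.77%, against a median of 59.7% among 2175 genes within 1.5-fold of its TPM.

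**Figure D2:**
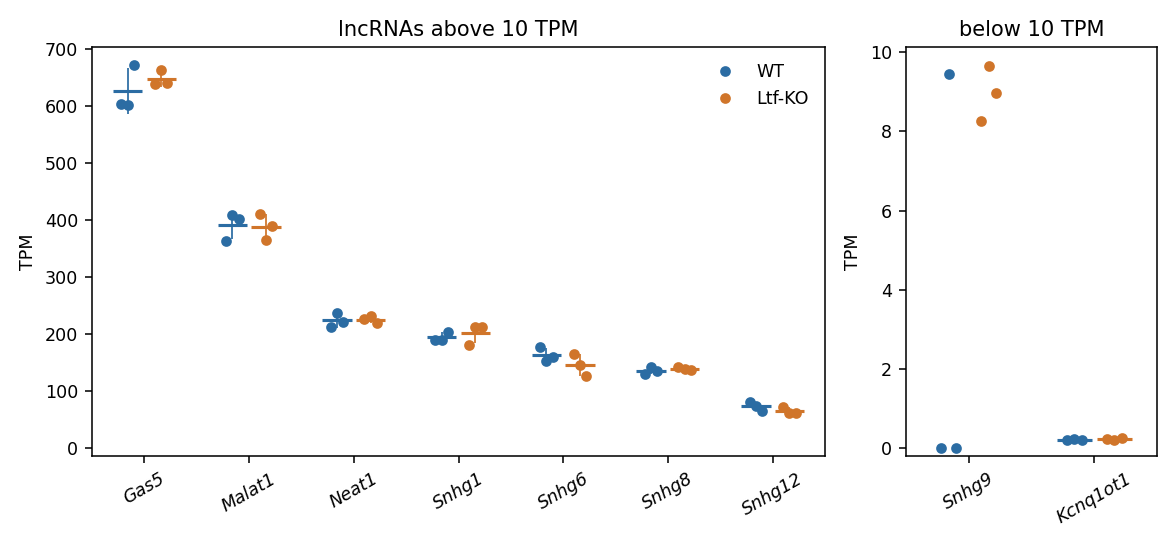
TPM of each lncRNA in every library (y axis, linear from 0), with WT in blue and *Ltf*-KO in orange. Short horizontal lines are group means and vertical lines SD (n = 3), neither drawn for *Snhg9*. The 7 lncRNAs above 10 TPM overlap between genotypes, and *Snhg9* is listed at 0 in 2 WT libraries.

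Among the snoRNA hosts, *Gas5*, named for its rise in growth-arrested cells, was measured at 603.01, 601.8 and 672.19 TPM in WT and at 638.69, 663.95 and 639.55 TPM in *Ltf*-KO. The third WT library was the highest of all 6 and the other WT libraries were the lowest, so the *Ltf*-KO values lay within the WT range. The log2 fold change was 0.051 (SE 0.050, 95% interval -0.068 to 0.17, limma adjusted p = 0.999). Without the third WT library the value was 0.10, with a limma unadjusted p of 0.023 and an adjusted p of 1.0. *Zbtb37*, which overlaps *Gas5* by 428 bp on the opposite strand, was at 2.48 to 4.17 TPM.

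*Snhg1*, the host of a cluster of box C/D snoRNAs, was measured at 188.81, 190.35 and 204.4 TPM in WT and at 181.55, 211.7 and 212.18 TPM in *Ltf*-KO. The lowest and the highest values of the 6 both came from *Ltf*-KO. The log2 fold change was 0.050 (SE 0.070, 95% interval -0.12 to 0.22, limma adjusted p = 0.999), and 0.12 without the first *Ltf*-KO library (limma unadjusted p = 0.0432, adjusted p = 1.0). *Snhg8*, which hosts an H/ACA snoRNA, had the smallest coefficient of variation of the hosts and was at 129.6, 142.15 and 135.86 TPM in WT and 142.7, 138.1 and 136.54 TPM in *Ltf*-KO. Its groups overlapped, with a log2 fold change of 0.035 (SE 0.044, 95% interval -0.072 to 0.14, limma adjusted p = 0.999).

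*Snhg6* and *Snhg12* had the lowest ratios of *Ltf*-KO to WT. *Snhg6* was measured at 177.11, 152.9 and 159.95 TPM in WT and at 165.15, 145.52 and 125.67 TPM in *Ltf*-KO. The first *Ltf*-KO library stood above all WT libraries but the first. The log2 fold change was -0.17 (SE 0.11, 95% interval -0.43 to 0.080, limma unadjusted p = 0.148, adjusted p = 0.999), and single libraries left out moved it between -0.27 and -0.072. Its overlap partner *Mcmdc2*, 127 bp on the opposite strand, was below 1 TPM in all libraries.

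*Snhg12* was measured at 81.1, 74.48 and 65.78 TPM in WT and at 72.8, 61.0 and 61.28 TPM in *Ltf*-KO. Both the second and the third *Ltf*-KO libraries lay under every WT library, and the first lay inside the WT range. The log2 fold change was -0.18 (SE 0.099, 95% interval -0.42 to 0.059, limma unadjusted p = 0.117, adjusted p = 0.999). It ranged from -0.26 to -0.11 without single libraries, and its limma unadjusted p was 0.0403 without the third WT library and 0.0364 without the first *Ltf*-KO library, where that of *Snhg6* was 0.0321.

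*Snhg9* was listed at 0, 9.45 and 0 TPM in WT and at 8.27, 9.64 and 8.98 TPM in *Ltf*-KO. The second WT library lay above the first and the third *Ltf*-KO libraries, so the groups overlapped, and the contrast rested on the zeros of the other WT libraries. The fitted log2 difference was 2.19 (SE 0.89, 95% interval 0.052 to 4.32, limma unadjusted p = 0.046, adjusted p = 0.999). It depends on the pseudocount, with 4.31 at a pseudocount of 0.1, and no fold is given against values listed at 0. Without the second WT library it was 3.31 with a limma adjusted p of 0.00238, and without single other libraries it lay between 1.62 and 2.24 with no adjusted p under 0.05.

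Such switches between 0 and several TPM were seen in other genes. Of 12956 genes whose mean reached 1 TPM, 145 were listed at 0 in 1 or more libraries and at 5 TPM or more in each of the others. In the range of 5 to 10 TPM, which holds *Snhg9*, 47 of 1797 genes did so. *Rps2*, a ribosomal protein gene on the opposite strand, covers all 435 bp of *Snhg9* and was at 4809.38 to 4992.44 TPM. Whether reads were counted by strand was not given in the sources used here, so reads of the 2 genes may not be told apart. The part of this overlap in the zeros was not tested.

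**Figure D3:**
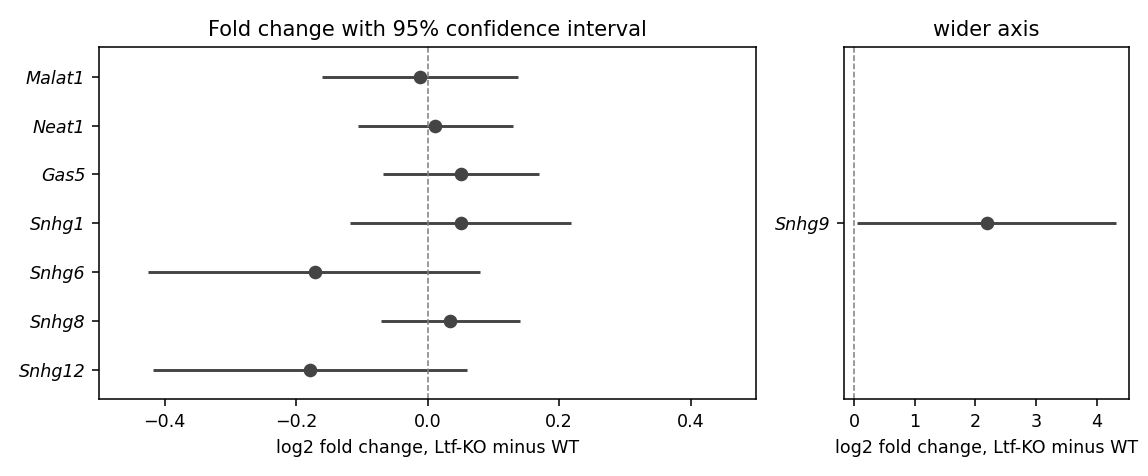
Log2 fold change on the log2(TPM + 1) scale, *Ltf*-KO minus WT (x axis), for the 8 tested lncRNAs, with points for the limma estimate and bars for its 95% confidence interval. The intervals of 7 lncRNAs span 0, and that of *Snhg9*, on a wider axis, runs from 0.052 to 4.32.

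Across the set, 8 of the 9 lncRNAs were tested, 5 with a higher and 3 with a lower mean log2 level in *Ltf*-KO, and 0 passed an adjusted p of 0.05. Over all 12956 genes tested with limma, 0 (0%) passed the adjusted threshold, with 0.181 as the smallest adjusted p, and 490 (3.78%) had an unadjusted p under 0.05, of which 260 (2.01%) were higher and 230 (1.78%) lower in *Ltf*-KO. *Snhg9* was the 1 lncRNA of the set with an unadjusted p under 0.05. None of the 8 had groups that did not overlap, against 8.46% of all genes tested, 4.73% with all *Ltf*-KO above all WT libraries and 3.73% with all below. The median log2 fold change of the 8 was 0.023, beside 0.011 for all genes tested. A missed threshold does not show equality, and the intervals above give the sizes of change these libraries allow.

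The lncRNAs differed in how far replicates spread. *Snhg6* and *Snhg12* had coefficients of variation of 10.6% and 10.4%, averaged over both genotypes. Among genes within 1.5-fold of their level, the medians were 3.85% and 4.53%, and 94.3% and 91.8% of those genes spread less. *Snhg1* at 6.56% and *Malat1* at 6.11% also lay above the medians for their levels, 3.65% and 3.47%. *Gas5* at 4.33% and *Neat1* at 4.2% were close to theirs, 3.6% and 3.64%, and *Snhg8* at 3.46% was under its median of 3.95%.

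**Figure D4:**
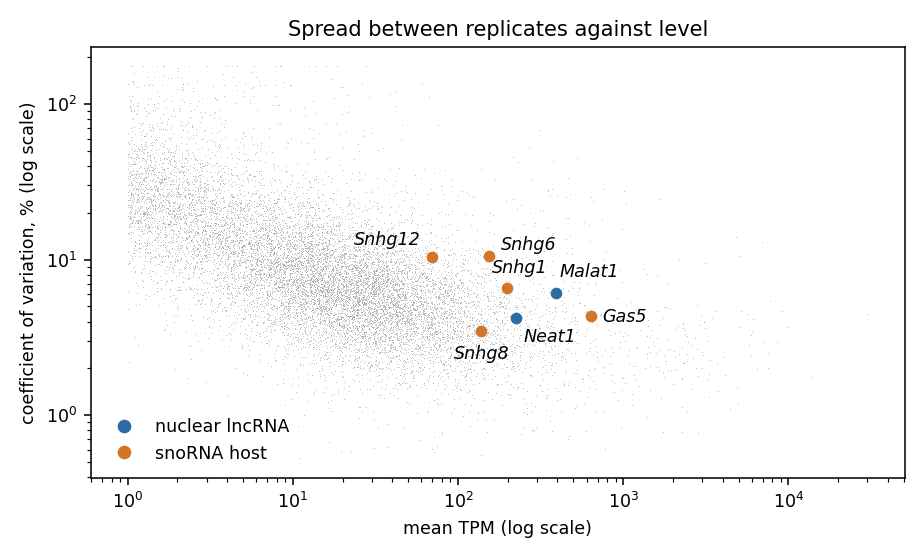
Coefficient of variation between replicates in percent, averaged over WT and *Ltf*-KO (y axis, log scale), against mean TPM (x axis, log scale), with 1 grey dot per gene at a mean of 1 TPM or more, nuclear lncRNAs in blue and snoRNA hosts in orange. *Snhg6* and *Snhg12* sit near the upper edge of the cloud at their levels, and *Snhg8* sits inside it. *Snhg9*, with values of 0, and *Kcnq1ot1*, below 1 TPM, are not drawn.

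The deviations of the lncRNAs ran together in some pairs and apart in others, over 6 libraries that each gene shares with all others. *Snhg6* and *Snhg12* had a Pearson r of 0.806 on log2(TPM + 1), both highest in the first WT library and both low in the second and the third *Ltf*-KO libraries. *Snhg1* ran opposite to them, with r = -0.88 to *Snhg12* and -0.746 to *Snhg6*. *Gas5* also ran opposite to *Snhg12* (r = -0.79), and *Kcnq1ot1* to *Snhg6* (-0.788). *Snhg8* ran with *Neat1* (0.837), *Snhg9* (0.762) and *Malat1* (0.72). These were the 8 of 36 pairs with an r of 0.7 or more in either direction. The share of all gene pairs past that limit was not taken, so the count does not show a relation between these lncRNAs. The r with *Snhg9* mainly follows its zeros in the first and the third WT libraries, and that with *Kcnq1ot1* rests on rounded values of 0.2 to 0.26 TPM. *Malat1* and *Neat1*, neighbours on chromosome 19, had r = 0.423. Each lncRNA of the set was also compared with 8041 named genes whose mean reached 10 TPM. Between 38 and 86 of these had an r of 0.9 or more with it, a stricter limit in the positive direction only.

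**Figure D5:**
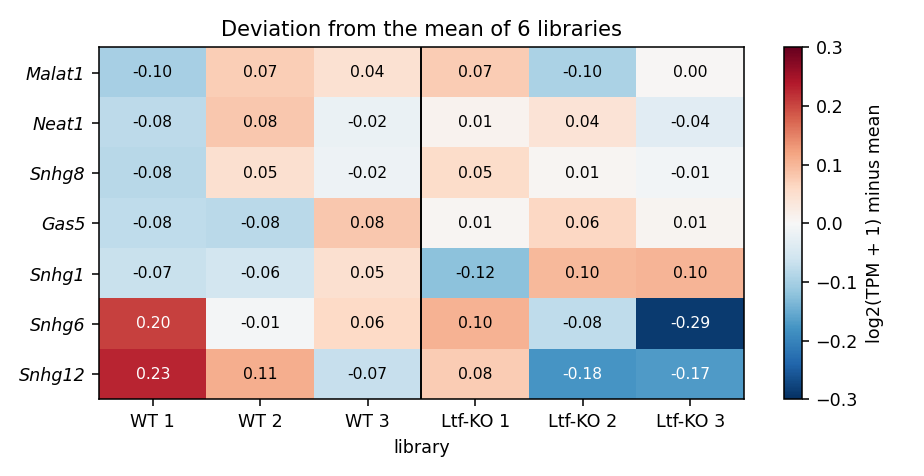
Log2(TPM + 1) of 7 lncRNAs in each library minus their mean over the 6 libraries, printed in each cell and coloured from blue (below the mean) to red (above), with WT left and *Ltf*-KO right of the line. *Snhg6* and *Snhg12* are highest in the first WT library and lowest in the second and the third *Ltf*-KO libraries, where *Snhg1* is highest.

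The genes whose pattern over the 6 libraries was most like each lncRNA are given by Pearson r. They are the 2 highest of 8041 genes compared over only 6 libraries, so a high r follows from the choice. No relation between these genes and the lncRNAs was tested. For *Malat1* they were *Fam13b* (0.996) and *Tamm41* (0.99), for *Neat1* *Gnb4* (0.994) and *Myd88* (0.988), and for *Kcnq1ot1* *Slc7a5* (0.996) and *Wdr45b* (0.992). For the hosts they were *Eif4g3* (0.994) and *Xpnpep1* (0.993) with *Gas5*, *AI837181* (0.986) and *Lrrk2* (0.976) with *Snhg1*, and *Jun* (0.988) and *Brix1* (0.986) with *Snhg6*. *Snhg8* was most like *Gfpt1* (0.997) and *Kif1b* (0.988), *Snhg9* most like *Dcxr* (0.993) and *Rgs10* (0.986), and *Snhg12* most like *Orc2* (0.985) and *Rpl12* (0.982). The r values of *Snhg9* mainly follow its zeros in the first and the third WT libraries. Those of *Kcnq1ot1* rest on rounded values of 0.2 to 0.26 TPM.

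The snoRNAs inside the hosts were mostly not registered. GENCODE M21 places 26 snoRNA genes in introns of the 6 hosts, 10 of them in *Gas5*, 8 in *Snhg1*, 5 in *Snhg12* and 1 each in *Snhg6*, *Snhg8* and *Snhg9*. Of the 24 with a table row, 21 were listed at 0 in all 6 libraries, among them all 9 of *Gas5*, while their hosts except *Snhg9* were above 50 TPM. The 3 with values above 0 were *Snord22* of *Snhg1*, a box C/D snoRNA, and *Snora44* and *Snora61* of *Snhg12*, of the H/ACA class. The sequences of *Snord22* and *Snora61* are printed from GENCODE M21 transcripts, with the D box of *Snord22* and the ACA box of *Snora61* in capitals. The letters TGATGA, searched as the C box, were not found in *Snord22*. No ACA box was found close to the end of *Snora44*, whose sequence is not printed.
Snord22: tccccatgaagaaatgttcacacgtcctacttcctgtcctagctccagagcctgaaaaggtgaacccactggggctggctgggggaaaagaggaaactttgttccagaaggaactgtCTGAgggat
Snora61: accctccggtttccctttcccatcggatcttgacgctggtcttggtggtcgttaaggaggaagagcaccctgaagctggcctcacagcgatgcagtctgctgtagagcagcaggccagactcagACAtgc

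*Snord22* was listed at 193.02, 0 and 95.37 TPM in WT and at 2.44, 87.91 and 22.49 TPM in *Ltf*-KO, a spread with no order by genotype. *Snora44* was above 0 in a single library, the second WT library, at 97.4 TPM, and *Snora61* in a single library, the third WT library, at 74.56 TPM. In the same libraries *Snhg12* was at 74.48 and 65.78 TPM, well within its range. A TPM of a gene as short as 126 to 130 bases can rest on few reads, and TPM does not keep their number.

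Other snoRNA-host lncRNAs were compared next. Of 13 tested, 6 were higher and 7 lower in *Ltf*-KO, with a median log2 fold change of -0.014, and 0 passed an adjusted p of 0.05 while 2 had a limma unadjusted p under 0.05, both lower, beside 1.78% of all genes tested that were lower at that p. *Snhg17* was at 38.63, 37.13 and 39.45 TPM in WT and at 33.09, 34.12 and 35.02 TPM in *Ltf*-KO. Its groups did not overlap, as for 8.46% of all genes tested, with a log2 fold change of -0.17 (SE 0.046, limma unadjusted p = 0.00943, adjusted p = 0.999), and the unadjusted p stayed at or under 0.0319 when any single library was left out. *Zfas1*, a host antisense to the 5' end of *Znfx1*, was at 206.08, 221.92 and 211.58 TPM in WT and at 203.95, 194.36 and 181.79 TPM in *Ltf*-KO. Its groups did not overlap either, with a log2 fold change of -0.14 (SE 0.052, limma unadjusted p = 0.0332, adjusted p = 0.999), and leaving out single libraries raised the unadjusted p to at most 0.106. *Snhg14*, a long host in an imprinted domain, had 8.83 ± 1.53 TPM in WT and 6.67 ± 1.41 TPM in *Ltf*-KO (SD, n = 3) with overlapping groups.

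Of 18 other regulatory lncRNAs tested, 13 were higher and 5 lower in *Ltf*-KO, with a median of 0.022 and 0 at an adjusted p under 0.05. The 1 with a limma unadjusted p under 0.05, beside 3.78% of all genes tested, was *Jpx*, an activator of *Xist*, at 4.05, 3.71 and 3.54 TPM in WT and 2.48, 3.34 and 2.88 TPM in *Ltf*-KO. Its groups did not overlap, as for 8.46% of all genes tested. The log2 fold change was -0.29 (SE 0.12, limma unadjusted p = 0.0444, adjusted p = 0.999), and the unadjusted p rose to as much as 0.116 without single libraries. *Ftx*, another gene of the X inactivation centre, had 10.6 ± 0.581 TPM in WT and 11.9 ± 0.705 TPM in *Ltf*-KO, and *Rpph1*, the RNA of RNase P, had 38.6 ± 12.2 and 56.8 ± 13.2 TPM (SD, n = 3), neither with an unadjusted p under 0.05. *Xist*, which coats the inactive X chromosome, was at 162.95 to 185.33 TPM in all 6 libraries.

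Protein-coding snoRNA hosts gave no call. Of 30 tested, 9 were higher and 21 lower in *Ltf*-KO, with a median log2 fold change of -0.020. A limma unadjusted p under 0.05 was reached by 0, beside 3.78% of all genes tested, and an adjusted one by 0, beside 0%. The lowest p belonged to the ribosomal protein gene *Rps3*, with 2143.8 ± 82.7 TPM in WT and 2033.7 ± 0.426 TPM in *Ltf*-KO (SD, n = 3). *Ncl*, which codes for the nucleolar protein nucleolin, had 1018.1 ± 5.93 and 984.6 ± 27.8 TPM. Of these 30 genes, 4 had groups that did not overlap, beside 8.46% of all genes tested.

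No call was made among proteins that work with the lncRNAs. Of 15 proteins of snoRNPs, the particles in which snoRNAs work, 5 were higher and 10 lower (median -0.018), and the lowest p belonged to the assembly factor *Ruvbl2*, with 111.8 ± 2.42 TPM in WT and 108.0 ± 2.29 TPM in *Ltf*-KO. Of 14 factors of nonsense-mediated decay, 7 were higher and 7 lower (median -0.0086), with the helicase *Upf1* at 37.9 ± 1.28 and 39.3 ± 0.86 TPM. Of 14 paraspeckle proteins, the partners of *Neat1*, 6 were higher and 8 lower (median -0.0054), led by *Pspc1* with 32.1 ± 2.15 and 29.3 ± 2.47 TPM. Of 18 nuclear speckle and SR proteins, the partners of *Malat1*, 6 were higher and 12 lower (median -0.020), led by the splicing regulator *Srsf10* with 96.7 ± 4.46 and 88.9 ± 5.67 TPM. SDs are over n = 3 libraries. Of the genes of these lists, 0 had a limma unadjusted p under 0.05, beside 3.78% of all genes tested, and 0 an adjusted p under 0.05, beside 0%. The groups of 1 gene, *Srrm1* of the nuclear speckle list, did not overlap, beside 8.46% of all genes tested.

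The genomic neighbours of the nuclear lncRNAs gave no calls. Of 12 genes of the *Kcnq1ot1* imprinted domain, 5 were tested, 7 were under 1 TPM in all libraries and *Th* and *Trpm5* among these were listed at 0 throughout. *Kcnq1* itself was at 0 to 0.06 TPM, and *Cdkn1c*, a cell cycle inhibitor, was at 7.9, 6.68 and 3.33 TPM in WT and 3.54, 4.31 and 5.85 TPM in *Ltf*-KO, with overlapping groups (log2 fold change -0.28, SE 0.29, limma adjusted p = 0.999). Of 7 tested neighbours of *Malat1* and *Neat1*, 5 were higher and 2 lower (median 0.025). *Frmd8* was at 29.68, 27.5 and 29.83 TPM in WT and 31.77, 32.4 and 30.46 TPM in *Ltf*-KO (log2 fold change 0.12, SE 0.053, limma unadjusted p = 0.063, adjusted p = 0.999). All its *Ltf*-KO values lay above all its WT values, as for 4.73% of all genes tested.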

How the data were processed

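RNA-seq of 6 libraries, 3 of WT and 3 of *Ltf*-KO SCs, was used, and genotype and replicate number were read from the labels of each sample. The authors deposited TPM per gene, recognised from the near-equal column sums of 993650 to 994356, and the submitters' processing notes name GRCm39. The aligner, the counting tool, the annotation and the use of strand were not given in the sources used here. TPM keeps no depth, so precision was judged from the spread between replicates. GO and pathway columns were not used.

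The members and lists were chosen with earlier results of these data known. The 12956 genes whose mean reached 1 TPM were tested with limma 3.58.1 in R 4.3.3 (lmFit, eBayes with trend) on log2(TPM + 1), two-sided, with Benjamini-Hochberg adjustment and a threshold of 0.05. Fold changes on this scale understate changes of low genes. Of the genes below that mean, only *Kcnq1ot1* and *Ltf* were compared, by an exact permutation test. Named genes were the 9 lncRNAs, *Ltf*, the 3 genes of each list with the lowest unadjusted p, the detected snoRNAs, and the 2 genes most correlated with each lncRNA among genes with a name whose mean reached 10 TPM. The values of some of these genes are not reported here. Overlapping genes and *Rps2* are named for their position, and other list genes as background or by range. The fit was tested on simulated data with 200 of 12956 genes changed 2-fold, at 50 TPM or more, and 100% were recovered. Each simulated gene had the spread typical of its level. Recovery of smaller changes, or of changes in genes with a wider spread such as *Snhg6* and *Snhg12*, was not simulated. Gene types, spans and snoRNA positions came from GENCODE M21, which held 94% of the table's identifiers, and promoters from RefSeq. Alternatives were a pseudocount of 0.1, no filter or a mean of at least 10 TPM, and quantile or median-of-ratios normalization. Others were omission of small RNA and mitochondrial genes, a replicate block, and each library left out in turn. The 9 lncRNAs had 1 row each, so summing rows of a repeated name could not change them.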

Additional observations from a re-analysis of the deposited data

How the results depend on the processing

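The number of genes past a limma adjusted p of 0.05 was 0 under the other pseudocount, filters, normalizations and the block, and ran from 0 to 6 when single libraries were left out. With no filter 890 genes had an unadjusted p under 0.05 and 281 did when the mean had to reach 10 TPM, against 490 reported, since different numbers of genes were tested. The share of these 490 that were lower in *Ltf*-KO was 46.9%. With quantile normalization 508 genes had an unadjusted p under 0.05, and 60% of those were lower. Of the 9 lncRNAs, between 0 and 1 passed the adjusted threshold without single libraries, the 1 being *Snhg9* without WT replicate 2, at 3.31 on the log2 scale. At an unadjusted p under 0.05 there were 0 with no filter, 0 at a mean of 10 TPM or more, which removes *Snhg9*, and between 0 and 3 without single libraries. With the replicate block there were 2, *Snhg9* and *Snhg12*, with limma unadjusted p-values of 0.0321 and 0.0284 and adjusted p-values of 1.0. Over the genes tested, the deviations of libraries of the same number had r of -0.0413, -0.0582 and -0.0875. Those of libraries of different number had r of -0.0259 to 0.0868. Whether libraries of the same number shared a preparation was not tested. The block called 0 genes at the adjusted threshold and 380 at the unadjusted one. Signs reversed for *Malat1* (-0.0648 to 0.0327 without single libraries), *Neat1* (-0.0257 to 0.0551) and *Xist* (-0.0289 to 0.0651). The sign of *Snord22* also reversed, to 0.485 at a pseudocount of 0.1 and over a range of -2.83 to 0.975 without single libraries. The cause was not tested. The other lncRNAs kept their direction in every alternative that was run. With 3 libraries a genotype and TPM without read numbers, the intervals in the text set the limit on what could be seen, and zeros in *Snhg9* and the snoRNAs carry no counting interval.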

Other observations

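Mitochondrially encoded mRNAs were examined beside the lncRNAs, as they take a large share of TPM. Of 13 tested, 8 were higher and 5 lower in *Ltf*-KO, with a median log2 fold change of 0.012, 0 at a limma adjusted p under 0.05 and 2 at an unadjusted p under 0.05, beside 3.78% of all genes tested. The groups of 2 did not overlap, beside 8.46% of all genes tested. *mt-Atp6*, a subunit of ATP synthase, was at 607.66, 562.2 and 284.19 TPM in WT and at 223.45, 249.99 and 173.42 TPM in *Ltf*-KO, without overlap (log2 fold change -1.10, SE 0.30, limma unadjusted p = 0.00877, adjusted p = 0.999). *mt-Nd3*, a subunit of complex I, was at 766.2, 757.32 and 1053.43 TPM in WT and at 648.77, 518.24 and 711.43 TPM in *Ltf*-KO, also without overlap (log2 fold change -0.45, SE 0.16, limma unadjusted p = 0.0303, adjusted p = 0.999). *mt-Co2*, a subunit of complex IV, was at 323.0 ± 77.7 TPM in WT and 477.2 ± 124.8 TPM in *Ltf*-KO (SD, n = 3) with overlapping groups. Over all libraries *mt-Atp8* was listed at 29050.08 to 31945.11 TPM and *mt-Co1* at 9628.73 to 10374.87 TPM, far above *mt-Atp6* and *mt-Co2*. How reads were assigned between mitochondrial genes was not given in the sources used here. Its part in the levels of *mt-Atp6*, *mt-Nd3* and *mt-Co2* was not tested. The summed TPM of the 13 mRNAs was 60732.4 to 64474.9 in WT and 60183.3 to 65772.4 in *Ltf*-KO.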
